A study of Mus musculus with 48 samples.

Results

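The 12 habenula (HAB) arrays of a 48-array series were compared by sampling cycle: the 6 pools of cycle 2 were set against the 6 pools of cycle 1, each pair sharing a Zeitgeber time (ZT, hours after lights on). Arrays were assigned to a cycle by the replicate number in their source label. The hour in each title placed the first number in the earlier of 2 successive cycles. The series measured RNA of HAB, SN/VTA (substantia nigra and ventral tegmental area), PFC (prefrontal cortex) and STR (striatum) on Affymetrix Mouse Gene 2.0 ST arrays. All groups were male C57BL/6 mice, with no transgene or treatment named in the labels, under alternating 12-h light and dark phases. The mice were killed every 4 h, and their age is not given in the sources used here. HAB cycle 2 held 1 array at each of ZT3, ZT7, ZT11, ZT15, ZT19 and ZT23, and HAB cycle 1 held the same 6 times. Each array carried pooled RNA of 3 mice, so a value is a mean over a pool and gives no spread between animals.

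The habenula is a small epithalamic nucleus beside the dorsal part of the third ventricle. Its medial part sends cholinergic and substance P fibres to the interpeduncular nucleus, and its lateral part restrains midbrain dopamine and serotonin neurons. The choroid plexus of the ventricle lies against it: a secretory epithelium around a vascular stroma, it makes cerebrospinal fluid and expresses Ttr, the carrier of thyroxine in that fluid, at a very high level. The neighbours in a coronal slice are the thalamus below and the hippocampus above. The choroid plexus content of a dissection was read from a choroid score, the mean log2 level of 8 genes of this epithelium (Ttr, Folr1, Kl, Clic6, Kcne2, Slc4a5, Tmem72 and Otx2). Whether a lower value means fewer choroid plexus cells in the pool or less RNA per cell cannot be told apart in such samples.

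Array medians lay between 5.84 and 6.07 on the log2 scale over all 48 arrays. The medial habenula list averaged 8.30 to 8.57 in the 12 HAB arrays, against 7.46 to 7.58 in SN/VTA, 7.26 to 7.37 in STR and 6.90 to 6.98 in PFC. The cycle 2 array at ZT15 stood apart from the other 5 of its cycle in choroid genes. By the levels of 18 clock genes it lay nearest to the cycle 1 array of its own time, ZT15 (r = 0.68). By the same measure the cycle 2 arrays at ZT7 and ZT23 lay nearest to the cycle 1 arrays of ZT11 and ZT19, and the other 3 nearest to their own time. Counts of called genes are therefore given with all 6 pairs and without the ZT15 pair or array. That array was picked out by its choroid genes. Calls made without it for choroid genes, or for genes that follow them, rest in part on this choice.

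The choroid score split the HAB arrays into 7 high and 5 low ones. In cycle 2 it was 6.85 at ZT3, 6.79 at ZT7, 6.64 at ZT11, 8.86 at ZT15, 7.0 at ZT19 and 6.91 at ZT23. In cycle 1 it was 8.69, 8.86, 8.72, 8.47, 8.69 and 8.98 at the same times. All cycle 2 arrays but that of ZT15 lay below every cycle 1 array, and the ZT15 array lay among those of cycle 1. The mean paired difference, cycle 2 minus cycle 1, was -1.56 ± 0.97 log2 units (SD, n = 6 pairs). Without the ZT15 pair it was -1.95 ± 0.18 (SD), a 3.86-fold lower score in cycle 2. The other tissues had scores of 6.33 to 7.25 in SN/VTA, 6.21 to 7.11 in STR and 5.55 to 5.95 in PFC. The 5 low HAB arrays thus lay in the range of SN/VTA, whereas no array outside HAB reached the 7 high ones.

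**Figure D1:**
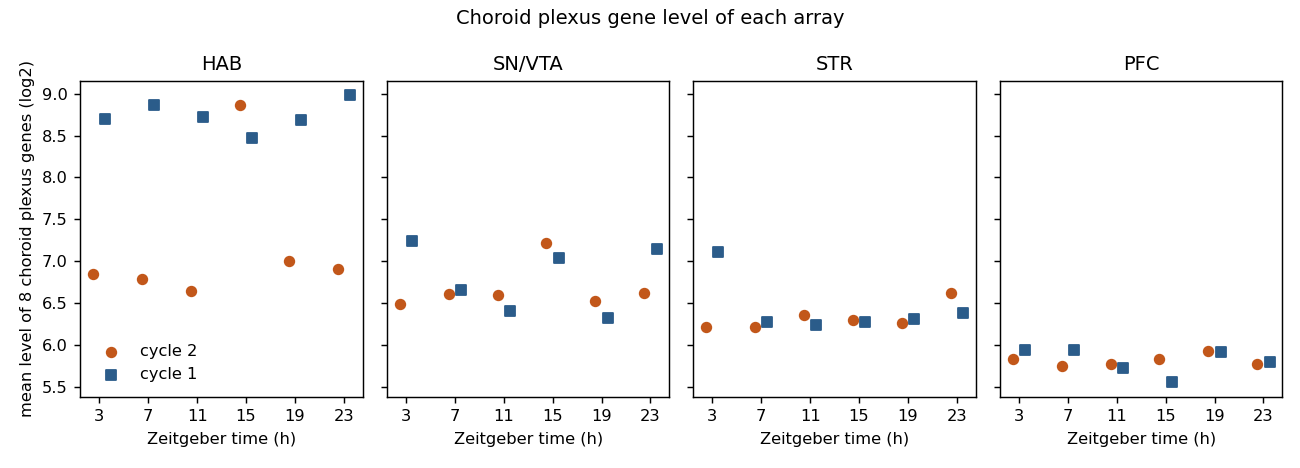
Choroid score (mean log2 level of 8 choroid plexus genes, vertical axis) of every array against Zeitgeber time in hours, 1 panel per tissue, with circles for cycle 2 and squares for cycle 1. In HAB, 5 of the cycle 2 arrays lie between 6.64 and 7.0 while the ZT15 array of cycle 2 (8.86) lies within the 8.47 to 8.98 of cycle 1.

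Ttr had log2 levels of 10.34 at ZT3, 10.25 at ZT7, 10.14 at ZT11, 13.14 at ZT15, 10.60 at ZT19 and 10.76 at ZT23 in cycle 2, against 13.06, 13.12, 13.10, 13.02, 13.08 and 13.14 in cycle 1. The 7 high arrays thus all lay between 13.02 and 13.14, near the highest value of the whole table (13.65). Kl, the anti-ageing protein klotho, had a lowest, median and highest level of 8.03, 8.38 and 11.16 in cycle 2, against 10.75, 10.94 and 11.24 in cycle 1. Slc4a5, a sodium bicarbonate cotransporter, gave 5.44, 5.67 and 8.50 in cycle 2, against 7.84, 8.25 and 8.61 in cycle 1. In each of these genes the cycle 2 maximum was the ZT15 array, and the other 5 arrays did not overlap with cycle 1. Over all genes, 1.78% had those 5 arrays below all of cycle 1. As score genes they define the high and low arrays, so their separation is not a separate result. Otx2, a homeodomain factor of this epithelium, had the smallest difference of the 8, with 7.69, 7.88 and 8.62 in cycle 2, against 8.31, 8.57 and 8.82 in cycle 1.

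Over all genes, the paired comparison of the cycles (limma on 17110 genes, Benjamini-Hochberg adjustment) found 1 gene lower in cycle 2 (0.00584% of the genes tested) and 0 higher. At an unadjusted p below 0.05 limma gave 792 lower (4.63%) and 567 higher genes (3.31%). The 8 score genes were lower in cycle 2 in 5 of 6 pairs each, with differences of -0.59 (Otx2) to -2.21 (Ttr), and none passed (limma adjusted p of 0.263 to 0.295). Without the ZT15 pair limma called 131 lower genes (0.766%) and 5 higher ones (0.0292%). The 131 included all 8 score genes and 22 of the 31 tested held-out choroid plexus genes, which are markers of this epithelium outside the score. Because the ZT15 pair was set aside for its choroid gene levels, these calls are not an independent test of such genes. Leaving out any other pair gave 0 calls, with 1107 to 1280 genes at an unadjusted limma p below 0.05. With the choroid score as a covariate there were 0 calls as well, and 710 genes (4.15%) had an unadjusted limma p below 0.05. The score and the cycle nearly coincide in these arrays, apart from that of ZT15 in cycle 2. That fit therefore separates them poorly and widens the intervals, so few calls could come from it.

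The called gene was Plscr2, a phospholipid scramblase. It had a lowest, median and highest level of 4.84, 5.02 and 5.46 in cycle 2, against 5.32, 5.55 and 5.95 in cycle 1. Its difference of -0.53 ± 0.05 (SE) was negative in 6 of 6 pairs (limma adjusted p = 0.0392). These levels lie around the floor of 5.04 that the filter on low values used. The call was lost under 10 alternatives, among them no filter, a fit without pairing by ZT and leaving out any pair but that of ZT15. Next by p came Slc16a12, a monocarboxylate transporter (-0.66, limma adjusted p = 0.158), and Crhr2, a receptor for urocortins (-0.59, 0.170). Then came Frmpd1os (-1.05, 0.206) and Ddr2, a collagen receptor (-0.36, 0.263). Each of these 4 was lower in all 6 pairs without passing. Over all genes, 2.31% were lower and 1.92% higher in all 6 pairs. Crhr2 had levels of 6.52, 6.40, 6.38, 6.54, 6.42 and 6.38 in cycle 2 from ZT3 to ZT23, against 6.84, 7.19, 6.90, 6.97, 7.12 and 7.15 in cycle 1. Unlike for Ttr, the cycle 2 array at ZT15 stayed with the rest of its cycle, and the cycles did not overlap. With that array set aside, 1.78% of all genes had the rest of cycle 2 below all of cycle 1.

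In the other direction, the 5 smallest p belonged to Mat1a (0.47, limma adjusted p = 0.263), Nhlh1 (0.40, 0.263), Ankrd63 (0.40, 0.263), Hhex (0.36, 0.263) and Trpd52l3 (0.46, 0.265). These 5 were higher in all 6 pairs and did not pass. The levels of Mat1a (4.75 to 5.75) and Trpd52l3 (4.50 to 5.61) lie around the filter floor of 5.04. Without the ZT15 pair the 5 genes that passed as higher in cycle 2 were Olfr370, Nhlh1, Krtap19-4, Krt71 and Pou3f1, named here whatever their class. Nhlh1, a neuronal basic helix-loop-helix factor, then differed by 0.44 (limma adjusted p = 0.0279). No gene reached a difference of 1 log2 unit upward in the 6 pairs, while 29 genes (0.169%) reached -1.

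The relation to choroid content itself was measured as a slope, the log2 change of a gene per 1 log2 unit of the score over the 12 arrays. Of 17102 genes outside the score, limma called 217 positive slopes (1.27%) and 18 negative ones (0.105%). Positive slopes ran from 0.10 to 1.74 with a median of 0.27, and 33 were above 0.5. Without the cycle 2 ZT15 array limma called 185 positive (1.08%) and 15 negative slopes (0.0877%). Because the scores form 2 clusters, the slope mostly sets the 7 high arrays against the 5 low ones. Within cycle 1, where the score spans 8.47 to 8.98, limma called 0 slopes (645, 3.77%, at an unadjusted p below 0.05). Within cycle 2 it called 34 positive (0.199%) and 1 negative (0.00585%), where the ZT15 array alone extends the score above 7.0. With cycle as a second term 65 positive (0.380%) and 9 negative slopes (0.0526%) passed.

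Of the 31 tested held-out choroid plexus genes, 27 had a called positive slope and 0 a negative one, against 1.27% and 0.105% of all genes. Their median slope was 0.49, against -0.0018 over all genes. The list was chosen with earlier results of these data known. It was kept apart from the score, but not from the data. The largest named slopes belonged to Defb11, a beta-defensin (1.74 ± 0.08, SE), F5, coagulation factor V (1.52 ± 0.06), and Prr32, a proline-rich protein (1.30 ± 0.06). Secreted and extracellular proteins followed, among them Sostdc1, an antagonist of BMP and Wnt signals (0.96 ± 0.04), Sulf1, a sulfatase that trims heparan sulfate (0.95 ± 0.06), and Ecrg4, the precursor of augurin (0.83 ± 0.07). Membrane proteins were Ace, the angiotensin-converting enzyme (1.01 ± 0.05), Trpv4, an osmotically gated cation channel (0.95 ± 0.05), Cldn1, a tight junction claudin (0.80 ± 0.05), and Abca4, a lipid flippase (0.79 ± 0.06). Tc2n (0.83) and Pon3, a paraoxonase (0.76), complete the 12 largest. The limma adjusted p of these 12 lay between 3.77e-09 (F5) and 1.09e-05 (Tc2n). In the 5 arrays of low score, Defb11 (2.81 to 4.21), Tc2n (4.10 to 4.92) and Prr32 (4.70 at the lowest) lay below the filter floor of 5.04. The slopes of Defb11, Tc2n and Prr32 thus set the high arrays against levels under that floor, which leaves the size of these slopes uncertain.

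F5 had levels of 5.39, 5.55, 5.39, 8.69, 5.64 and 5.62 in cycle 2 from ZT3 to ZT23, against 8.33, 8.62, 8.87, 7.93, 8.31 and 8.40 in cycle 1. Its ZT15 array of cycle 2 was higher than 5 of the 6 arrays of cycle 1. Sostdc1 gave 7.49, 7.40, 7.30, 9.37, 7.69 and 7.71 in cycle 2, against 9.19, 9.81, 9.31, 8.91, 9.24 and 9.56 in cycle 1. Trpv4 gave 5.51, 5.70, 5.69, 7.43, 5.77 and 5.6 in cycle 2, against 7.32, 7.32, 7.61, 7.19, 7.73 and 7.85 in cycle 1. For all 3 genes the groups did not overlap once ZT15 of cycle 2 was set aside, as for 1.78% of all genes. Without the ZT15 pair the paired difference of F5 was -2.99 (limma adjusted p = 3.8e-05), that of Sostdc1 -1.90 (0.00033) and that of Trpv4 -1.91 (0.000103). Leaving out that pair, which was chosen by its choroid gene levels, favours low p-values for these 3 genes. Wfdc2 and 3 further held-out genes did not pass the slope test and differed little between cycles: Wfdc2 (-0.23), Col8a2 (-0.13), Slc29a4 (-0.10) and Slc26a11 (0.0074).

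**Figure D2:**
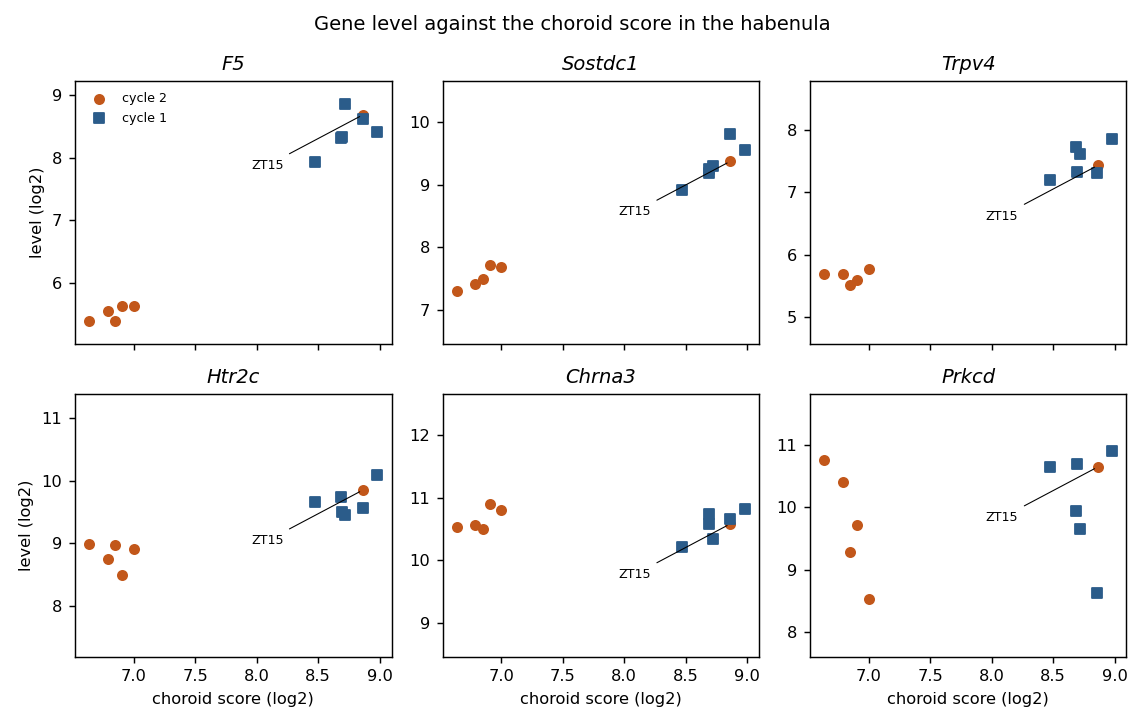
Log2 level (vertical axis) of 6 genes against the choroid score (horizontal axis) in the 12 HAB arrays, with circles for cycle 2 and squares for cycle 1; a line marks the cycle 2 array at ZT15. F5, Sostdc1, Trpv4 and Htr2c are higher in the 7 arrays of high score, Chrna3 of the medial habenula spans 10.22 to 10.83 in those 7 and 10.51 to 10.90 in the 5 of low score, and Prkcd of the thalamus spans 8.53 to 10.89.

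The 300-base promoters of 2 of these genes are shown because both hold the core of the OTX2 motif, TAATCC, and Otx2 is itself a score gene. The sequences are those of RefSeq on GRCm38.p6, from 250 bases before to 50 after the annotated start, with the match in capitals (GGATTA is TAATCC on the other strand). Ace lies at chr11:105967698-105967997 on the plus strand and Abca4 at chr3:122044210-122044509 on the plus strand.
Ace: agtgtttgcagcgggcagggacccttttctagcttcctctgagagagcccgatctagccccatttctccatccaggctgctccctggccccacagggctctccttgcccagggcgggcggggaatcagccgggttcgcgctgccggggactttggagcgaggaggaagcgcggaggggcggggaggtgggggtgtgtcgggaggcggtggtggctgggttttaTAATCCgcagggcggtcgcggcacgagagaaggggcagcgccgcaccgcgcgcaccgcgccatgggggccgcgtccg
Abca4: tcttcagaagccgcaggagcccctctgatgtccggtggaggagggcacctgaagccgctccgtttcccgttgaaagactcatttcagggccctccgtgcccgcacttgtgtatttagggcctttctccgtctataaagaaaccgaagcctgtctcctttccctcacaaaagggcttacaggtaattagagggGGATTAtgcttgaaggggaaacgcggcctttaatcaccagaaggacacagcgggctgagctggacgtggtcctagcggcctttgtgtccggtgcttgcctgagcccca
The match starts 27 bases before the start in Ace and 58 bases before it in Abca4. Searched on both strands, TAATCC was found in 16 of the 166 score and positive-slope genes that have a promoter in the table (9.64%), against 8.14% of all 27025 genes. Among the score genes and the named slope and tissue genes it was found in 5 of 17 (29.4%), a set chosen by its values. A match describes the letters of this window and shows no binding.

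All 4 small RNA genes with a called positive slope lie inside 1 of 2 host genes; they were named after their values were seen. Trpm3, a cation channel of the held-out list, had a slope of 0.38 ± 0.04 (SE, limma adjusted p = 3.5e-05), and Mir204 inside it had 0.85 ± 0.07 (6.8e-06). Mir204 had a lowest, median and highest level of 5.81, 6.11 and 7.90 in cycle 2, against 7.48, 7.78 and 8.11 in cycle 1. Htr2c, the serotonin 2C receptor, is on the lateral habenula list and is also well known from choroid plexus epithelium. Its slope was 0.45 ± 0.06 (limma adjusted p = 0.000397). Inside Htr2c lie Snora35 (0.80), Mir1912 (0.74) and Mir764 (0.26), all called, and Mir1298 (0.14, limma adjusted p = 0.417), which was not. Whether these probe sets saw the small RNA or intron RNA of the host cannot be told apart.

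The mature sequences of the 3 called miRNA genes are shown with the seed, bases 2 to 8, in capitals. They are from RefSeq on GRCm38.p6, plus strand. The 5 listed arms have 5 different seeds, so none of these miRNAs share one.
mmu-miR-204-5p: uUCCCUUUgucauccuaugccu
mmu-miR-204-3p: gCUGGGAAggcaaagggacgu
mmu-miR-1912-3p: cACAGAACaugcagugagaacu
mmu-miR-764-5p: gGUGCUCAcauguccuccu
mmu-miR-764-3p: aGGAGGCCauaguggcaacugu
The arm of Mir204 that carries the seed UCCCUUU lies at chr19:22750610-22750631, and the listed arm of Mir1912 at chrX:147009493-147009514. An array probe set does not separate the arms, so each value stands for the gene and not for an arm.

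Htr2c had levels of 8.97, 8.75, 8.99, 9.85, 8.90 and 8.48 in cycle 2 from ZT3 to ZT23, against 9.50, 9.56, 9.45, 9.65, 9.74 and 10.08 in cycle 1. The cycle 2 array at ZT15 was above 5 of the 6 cycle 1 arrays, and the other 5 lay below all of them, as for 1.78% of all genes. Its paired difference was -0.67 ± 0.19 (SE, limma adjusted p = 0.357), and -0.85 without the ZT15 pair (0.0628).

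The 18 negative slopes were shallow, with a median of -0.17. The named ones were Trpd52l3 (-0.26), Nhlh1 (-0.22), Atoh7 (-0.19), Krtap19-4 (-0.19), Ankrd63 (-0.19) and Slc35d3 (-0.19), with limma adjusted p between 0.00536 and 0.0486. Trpd52l3, the steepest, had levels of 4.50 to 5.61, around the filter floor of 5.04. With cycle as a second term none of these 6 passed (limma adjusted p of 0.137 to 0.837), and with cycle and ZT as terms 0 negative slopes passed. Trpd52l3, Nhlh1 and Ankrd63 are among the genes named above as higher in cycle 2 in all 6 pairs, and both measures rest on the same 12 arrays. Nhlh1 had a lowest, median and highest level of 5.47, 5.73 and 6.04 in cycle 2, against 5.23, 5.37 and 5.51 in cycle 1. Its lowest cycle 2 array was that of ZT15, below the cycle 1 maximum.

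**Figure D3:**
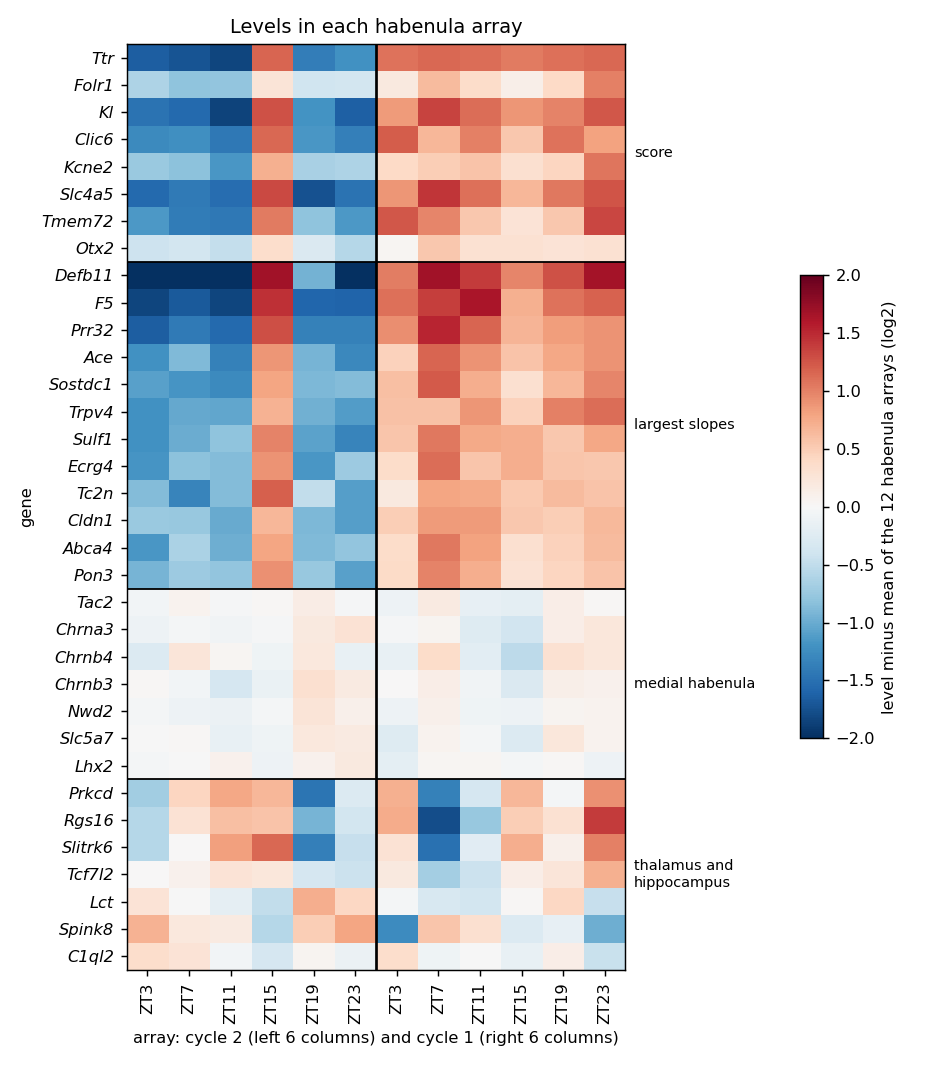
Log2 level minus the mean of the 12 HAB arrays (colour, blue lower and red higher, clipped at 2) for score genes, the 12 largest positive slopes, 7 medial habenula genes and 7 genes of thalamus and hippocampus, with cycle 2 in the left 6 columns and cycle 1 in the right 6. The choroid genes are blue in cycle 2 except at ZT15, the 7 medial habenula genes shown are pale throughout, and the thalamus genes shown change from array to array within both cycles. The medial habenula, thalamus and hippocampus genes were picked without a rule. Medial habenula genes with a wider span, such as Pou4f1 (7.78 to 9.36), Chrna5 (4.76 to 6.24) and Gng8 (7.72 to 8.70), are not shown.

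Constancy between cycles was read from the limma 95% interval of the paired difference, called constant where it lay within 0.5 log2 units of 0. Of the habenula genes tested, 45 of 51 were constant, against 95.4% of all genes. The medial list gave 31 of 34 and the lateral list 14 of 17. Both shares are below that of all genes. Without the ZT15 pair 44 of 51 were constant, and 92.8% of all genes. Neither habenula list nor those of thalamus, hippocampus, ependyma, oligodendrocytes, astrocytes, microglia and clock had a called gene in the cycle contrast, with or without that pair. The median difference was 0.01 for the medial list and -0.04 for the lateral list, against 0.00083 over all genes.

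Tac2, which encodes neurokinin B and marks the medial habenula, averaged 11.63 ± 0.07 in cycle 2 and 11.59 ± 0.16 in cycle 1 (SD, n = 6 each). Chrna3, a subunit of the nicotinic receptors of these neurons, averaged 10.65 ± 0.16 in cycle 2 and 10.56 ± 0.24 in cycle 1 (SD). Chrnb4, its partner subunit, averaged 9.53 ± 0.21 in cycle 2 and 9.54 ± 0.35 in cycle 1 (SD). In all 3 the difference was smaller than the spread within a cycle. Slc5a7, the choline transporter, differed by 0.06 (95% interval -0.08 to 0.20), and Chat, which makes acetylcholine, by -0.08 (-0.25 to 0.10). Slc17a7, the vesicular glutamate transporter, differed by 0.04 (-0.17 to 0.24). Among transcription factors, Lhx2 differed by 0.07 (-0.07 to 0.21), Nhlh2 by 0.09 (-0.05 to 0.23) and Irx2 by -0.07 (-0.21 to 0.07).

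The narrowest intervals of the 51 genes were those of Scube1 (-0.04), Wif1, a secreted Wnt inhibitor (-0.08), Mapk4 (-0.03), the cytokine Il18 (-0.12) and Cacng3 (0.02). Il18 was nevertheless lower in all 6 pairs (limma adjusted p = 0.677). Constant by interval does not mean without difference: Asic4 (0.19) and Kctd8 (-0.19) of the medial list and Gpr151 (-0.25) of the lateral list had unadjusted limma p below 0.05 and intervals within the bound. The 6 genes that were not constant were Gng8 (-0.34, interval -0.66 to -0.02), Chrna5 (0.25, -0.11 to 0.60), Pou4f1 (-0.13, -0.52 to 0.26), Htr2c, Necab1 (-0.06, -0.62 to 0.50) and Slc17a6 (-0.08, -0.58 to 0.42). Of these Htr2c alone had a called slope on the choroid score. Necab1 is on the thalamus list too and Slc17a6 is also expressed there, and their intervals were wide on both sides of 0.

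**Figure D4:**
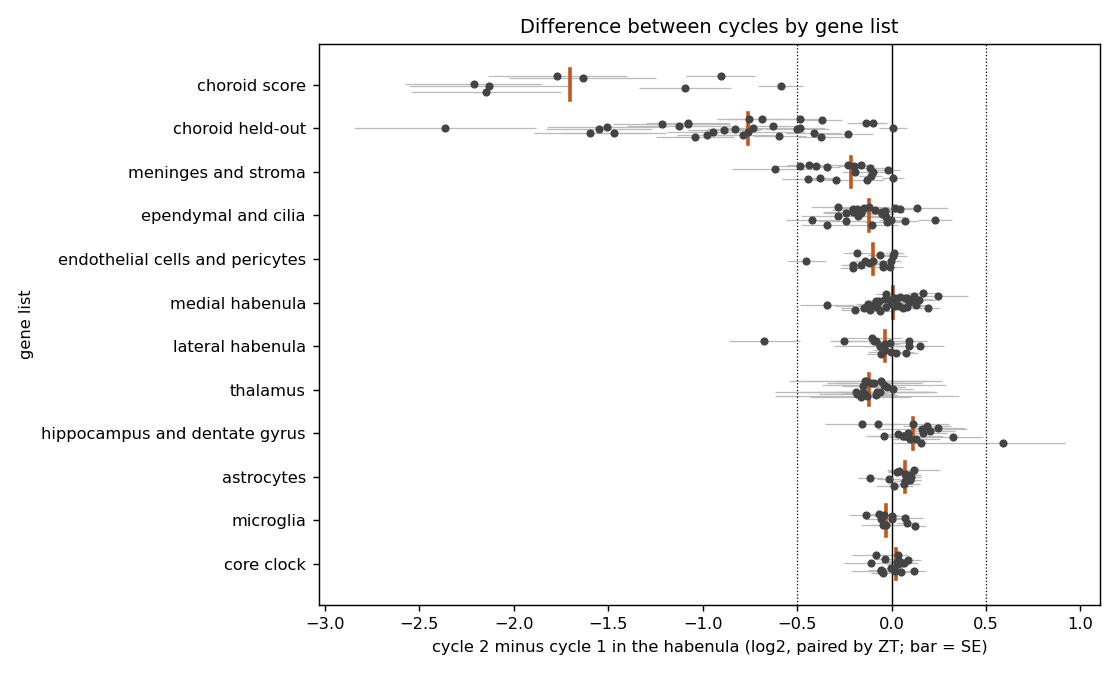
Difference between cycles in HAB (log2, cycle 2 minus cycle 1, paired by ZT, horizontal axis) of each tested gene of 12 lists, with the SE as a bar and the list median as a coloured tick; dotted lines mark 0.5 on either side of 0. The choroid lists lie to the left, with medians of -1.70 and -0.76, while the medial habenula list is centred at 0.01.

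The other cell types a habenula dissection could hold were read from their own lists. Of the meninges and stroma list, 17 of 18 genes were lower in cycle 2, against 49.6% of all genes, 11 of them at an unadjusted limma p below 0.05 (4.63% of all genes), and 0 passed. The smallest p were those of Mgp, matrix Gla protein (-0.38 ± 0.07, SE), Slc22a8, an organic anion transporter (-0.34 ± 0.07), and Bmp6 (-0.40 ± 0.09), each lower in 6 of 6 pairs. Called positive slopes in this list were 3 of 18, against 1.27% of all genes: Igf2 (0.31), Igfbp2 (0.30) and Lum (0.45). Without the ZT15 pair these 3 of the list were called as lower in cycle 2 by limma, with differences of -0.61, -0.63 and -0.89. Emcn, a sialomucin of capillary endothelium, also had a called slope (0.32, limma adjusted p = 4.61e-05), alone among 15 endothelial and pericyte genes, and was called without the ZT15 pair (-0.57). Of these 15, 13 were lower in cycle 2, against 49.6% of all genes. At an unadjusted limma p below 0.05, 5 of them were lower, against 4.63% of all genes. Of 27 ependymal and cilia genes, 22 were lower (49.6% of all genes) and 1 had a called slope, Cfap126 (0.25).

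Of 13 glucocorticoid-responsive genes, 11 were lower in cycle 2, against 49.6% of all genes. Lower at an unadjusted limma p below 0.05 were 3 of the 13, against 4.63% of all genes. They were the kinases Sgk1 (-0.51 ± 0.12, SE) and Pdk4 (-0.29 ± 0.09), and the NF-kappaB inhibitor gene Nfkbia (-0.14 ± 0.06). Pdk4 had the 1 called slope of this list (0.19, limma adjusted p = 0.00461), against called positive slopes in 1.27% of all genes. Among 10 heat shock genes, the inducible chaperone genes Hspa1a (0.54 ± 0.13, SE) and Hspa1b (0.45 ± 0.18) were higher at an unadjusted limma p below 0.05. Over all genes 3.31% were higher at that level. Neither list had a gene that passed in the cycle contrast.

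Thalamus genes varied between arrays more than between cycles. The list mean ran from 8.09 to 9.16 in cycle 2 and from 7.89 to 9.45 in cycle 1, a range of 1.56 over the 12 arrays, against 0.27 for the medial habenula. A list mean averages out the variation of single genes. The median range of a single gene was 1.67 in the thalamus list and 0.63 in the medial habenula list, against 0.45 over all genes. Prkcd, a kinase of thalamic relay neurons, had levels of 9.28, 10.41, 10.75, 10.64, 8.53 and 9.71 in cycle 2 from ZT3 to ZT23, against 10.69, 8.63, 9.65, 10.64, 9.94 and 10.89 in cycle 1. The cycles overlapped over nearly their whole range. By interval 5 of 18 thalamus genes were constant, and 0 differed at an unadjusted limma p below 0.05. In the hippocampus and dentate gyrus list 11 of 19 were constant, with a median difference of 0.11, and 0 differed at an unadjusted limma p below 0.05. The largest difference there was that of Spink8 (0.59 ± 0.33, SE). The oligodendrocyte list had 12 of 12 genes lower in cycle 2 (49.6% of all genes) with a median of -0.19, and 0 at an unadjusted limma p below 0.05. All 12 astrocyte, all 11 microglia and all 18 clock genes tested were constant, as were 95.4% of all genes. The part of the neighbouring tissue in the results above was not tested.

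**Figure D5:**
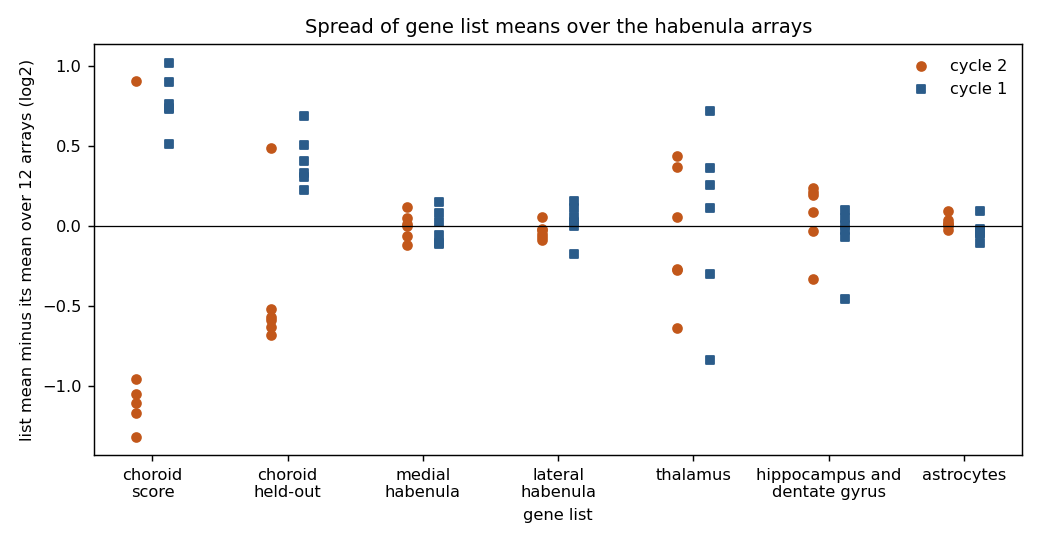
Mean log2 level of 7 gene lists in each HAB array, minus the mean of the list over the 12 arrays (vertical axis), with circles for cycle 2 on the left and squares for cycle 1 on the right of each list. Choroid lists separate the cycles except for 1 array, thalamus means spread over 1.56 log2 units over the 12 arrays, and medial habenula means stay within 0.27. Single genes vary more than a list mean: the median range of a medial habenula gene is 0.63, against 0.45 over all genes.

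The same cycle comparison gave 0 calls in SN/VTA, PFC and STR, with 1707 (9.98%), 696 (4.07%) and 896 genes (5.24%) at an unadjusted limma p below 0.05. Tested directly over all 48 arrays, the cycle difference in HAB minus its mean in the other 3 tissues was called for 99 genes as lower (0.579%) and 3 as higher (0.0175%). The 99 included 7 of the 8 score genes and 20 of the 31 held-out choroid genes. Leaving out the ZT15 arrays gave 198 lower (1.16%) and 15 higher (0.0877%), and leaving out the arrays of any other ZT gave 23 to 59 calls. The 5 smallest p were those of Pla2g5, a secreted phospholipase (-1.07 ± 0.13, SE, limma adjusted p = 0.000285), Trpv4 (-1.48 ± 0.21), Sulf1 (-1.43 ± 0.20), Ace (-1.57 ± 0.22) and Frem1, an extracellular matrix protein (-0.93 ± 0.13). The last 4 had a limma adjusted p of 0.000837. Pla2g5 had a lowest, median and highest level of 6.04, 6.16 and 7.25 in HAB cycle 2, against 7.08, 7.31 and 7.79 in HAB cycle 1, and was lower in 6 of 6 pairs. Its cycle difference was -0.05 in SN/VTA, 0.05 in PFC and 0.0065 in STR.

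Arrays of other tissues gave a test of the slopes in samples that the HAB slopes had not used, although some may come from the same mice. In SN/VTA, 152 of the 217 genes (70.0%) had a slope above 0, against 49.9% of all genes. Of the 217, 27 (12.4%) also had an unadjusted limma p below 0.05, against 1.68% of all genes. Prr32 alone passed there (0.00585% of all genes; 0.93 ± 0.11, SE, limma adjusted p = 0.0117), and F5 had 1.06 ± 0.17 without passing (0.237). In PFC 114 of the 217 (52.5%) had a slope above 0, against 45.7% of all genes, and in STR 115 (53.0%), against 45.3%. In PFC 2.76% of the 217 were positive with an unadjusted limma p below 0.05, against 3.96% of all genes, and in STR 3.23%, against 3.10%. The score spanned only 5.55 to 5.95 in PFC. In STR the cycle 1 array at ZT3 had 7.11, and the others lay between 6.21 and 6.62. The span of the score was thus narrow in PFC and rested mostly on 1 array in STR. For these reasons the slopes in these 2 tissues cannot decide whether the 217 genes follow the score there. Limma called 0 slopes in PFC and STR (1324, 7.74%, and 1291, 7.55%, at an unadjusted p below 0.05). Genes of 1 list share arrays and are not independent.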

How the data were processed

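The deposited values of the authors, 1 level per probe set in 48 arrays, were taken as log2 because they ran from 1.09 to 13.65; how they were background-corrected, summarised and normalized is not given in the sources used here. Per the labels, RNA was isolated with RNeasy columns and labelled with the WT Pico kit. All 48 columns were matched and used. The platform annotation gave 23521 of 41345 rows 1 symbol and 1814 several; 16010 are unnamed here. Rows with several symbols were left out. The row with the highest HAB mean stood for each of 22180 genes, and 17110 genes passed a floor on the HAB mean, the 30th percentile over the table (5.04). No detection calls were used, and precision is set by how many arrays there are.

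The HAB cycle difference was fitted with limma 3.58.1 in R 4.3.3 (lmFit, eBayes) with ZT as a factor, leaving 5 residual degrees of freedom. Adjusted p-values are Benjamini-Hochberg over all genes tested, called below 0.05. Slopes used the 12 arrays of a tissue without covariates and left out the score genes. The difference between tissues used all 48 arrays with tissue-by-ZT means. The same ZT in both cycles is the pairing, from the labels; same-ZT deviations correlated by 0.0053 on average. P-values measure the spread between pools. Cycle, day and handling cannot be told apart.

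Named genes are the 5 smallest p in each direction of the cycle contrast, the 12 largest positive and 6 largest negative called slopes, the 5 smallest p of the tissue contrast, the score and medial habenula genes, the 5 narrowest habenula intervals and up to 6 genes per other list. Predicted genes, small RNAs, olfactory and vomeronasal receptors and immune receptor segments were passed over. Other names were chosen after their values were seen: the 5 higher genes without ZT15, Htr2c's and Trpm3's small RNAs, Igf2, Igfbp2, Lum, Cfap126, Prkcd, Slc17a6 and Wfdc2. The comparison, the score and the 18 gene lists were chosen with earlier results of these data known. On simulated data with the spread of these arrays, 67.2% of changes of 0.5 log2 units were called in the cycle contrast. The share was 95.5% for changes of 1 and 100% for changes of 2 log2 units. The simulation changed 67, 67 and 66 genes by these 3 sizes at once, with noise independent between genes. So many true changes ease the Benjamini-Hochberg cutoff, while 1 gene passed in the real contrast. The shares may therefore be too high for the real contrast. In the HAB arrays themselves, the 8 score genes differed by -0.59 to -2.21 and 0 were called. Whether the shares hold for genes with 1 pair unlike the others, as at ZT15, was not tested. Alternatives covered normalization, filter, pairing, weights, covariates and left-out arrays. Promoter and miRNA sequences are from RefSeq GRCm38.p6; figures used matplotlib 3.10.9.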

Additional observations from a re-analysis of the deposited data

Results flagged for a closer look

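In 28 of 86 groups of 6 values (a named gene or list mean in 1 cycle), the highest or lowest array stood off by more than 0.625 of the range of its group, the 95% critical value of Dixon's test. Chance alone gives such a gap in about 5% of groups of unselected values. That rate cannot be set against this count, because the named genes make up the score or were chosen by values of these same arrays. The score was high at ZT15 of cycle 2, and its genes and those with the largest slopes on it share that by choice. Genes that vary together are also not separate cases. In 23 of the 28 the array was that of cycle 2 at ZT15, always as the highest. Its gap as a share of the range was 0.924 for F5, 0.897 for Prr32, 0.896 for Clic6, 0.895 for Slc4a5 and 0.865 for Trpv4. It was 0.817 for Pon3, 0.816 for Pla2g5, 0.802 for Sostdc1, 0.799 for Cldn1, 0.793 for Ace and for Ttr, 0.789 for Kl, 0.783 for Ecrg4 and 0.778 for Sulf1. It was 0.747 for Tmem72, 0.727 for Abca4, 0.707 for Kcne2, 0.695 for Otx2, 0.673 for Tc2n, 0.656 for Frem1 and 0.654 for Defb11. The mean of the score genes gave 0.838 and that of the held-out choroid genes 0.863.

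The other 5 were Mat1a, high in cycle 2 at ZT3 (0.649), Frem1, high in cycle 1 at ZT7 (0.652), and Kcne2, high in cycle 1 at ZT23 (0.649). The mean of the hippocampus and dentate gyrus genes was low in cycle 1 at ZT23 (0.700), where the thalamus mean was the highest of the 12 arrays (9.45). The mean of the meninges and stroma genes was high in cycle 1 at ZT7 (0.735).

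The cycle difference in HAB differed from its mean in the other 3 tissues by the limma test of that difference for the 5 named genes, by -1.57 for Ace, -1.48 for Trpv4, -1.43 for Sulf1, -1.07 for Pla2g5 and -0.93 for Frem1.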

How the results depend on the processing

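The count of 1 gene for the cycle contrast was 0 without the filter, with the score or Ttr as a covariate, and with a trended robust prior (limma). At an unadjusted p below 0.05 these 4 gave 1748, 710, 691 and 1325 genes. In 1 fit of all 48 arrays the count was 197 (179 lower, 18 higher), and leaving out 1 pair gave 0 to 136. Without pairing by ZT (no replicate block) it stayed 1, with Crhr2 as the gene.

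The 235 slopes became 74 with cycle as a second term, 22 with cycle and ZT (replicate block), 0 in cycle 1 alone and 35 in cycle 2 alone. Leaving out 1 array gave 177 to 247, and leaving out the 2 arrays farthest from the median score gave 185. In cycle 1 alone the slopes of Trpd52l3 (0.57), Nhlh1 (0.0085) and Ankrd63 (0.36) turned positive. The tissue difference of 102 genes became 23 to 213 when 1 ZT was left out. With the score as a covariate 25 of 51 habenula genes were constant, and 62.8% of all genes. The causes were not tested. Centring, quantile normalization and the other alternatives kept every count within 1.5 times. Over the named genes, 334 alternative slopes kept sign and call, 77 kept the sign without passing and 3 turned. In the cycle contrast, 69 values of 38 genes came to pass and 10 of Plscr2 no longer did. A further 148 values of 79 uncalled genes moved by more than the residual SD of the fit, nearly all with the score or Ttr as a covariate, and 62 of the 148 kept their sign. All 45 tissue differences kept their call. With 5 residual degrees of freedom and pools of 3 mice, small differences may go unseen.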
